A study of Mus musculus with 3 samples.

Results

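Transcripts annotated as targets of nonsense-mediated decay (NMD) were described in RNA bound to chromatin of mouse macrophages. The set was chosen by its measured level: an annotated transcript of the biotype nonsense_mediated_decay belonged to it when its TPM, a length-normalised abundance, was 1 or more in the first transcript table of all 3 libraries. This rule took 1232 of the 7186 NMD transcripts among 141862 annotated transcripts, and the 1232 lay in 1020 genes. Of the NMD transcripts of protein-coding genes, 17.1% passed, beside 27.9% of all transcripts of those genes. Of retained-intron transcripts of those genes 51.8% passed, and of protein-coding transcripts 22.6%. These shares follow from the rule and are a description only.

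The cells were primary macrophages grown from the bone marrow of C57BL/6J mice and treated with Lipid A, the TLR4-binding moiety of bacterial lipopolysaccharide, at 100 ng/ml for 10 min. There was 1 group of 3 libraries, labelled biological replicates 1, 2 and 3, with no unstimulated library used here, so a level does not show a response. The libraries were made from 1 µg, 250 ng and 500 ng of RNA in that order, so amount and replicate cannot be told apart. They carry the same donor entry, so their spread may be partly technical, and age and sex were not collected. The first tables held 15698066, 16005795 and 14386724 estimated counts on annotated transcripts, of which the NMD transcripts described here took 347739, 336392 and 305708. All 8 macrophage markers had a TPM of 1 or more in every library, with sums of 1334, 853 and 694, while none of the markers of neutrophils, T cells, B cells, erythroid cells or fibroblasts did.

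NMD is a quality control pathway that destroys an mRNA when ribosomes stop well upstream of an exon junction. Splicing leaves a protein complex, the exon junction complex, near each junction, and a complex that remains downstream of a terminating ribosome recruits the helicase UPF1 and the kinase SMG1. Because recognition needs translation, RNA still on chromatin has in general not yet met the pathway. Many genes for splicing regulators, among them those of SR proteins and hnRNPs, are known to make such transcripts by including a "poison" exon or by splicing an intron downstream of the normal stop codon, as a way to limit their own protein.

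The stop codons below belong to transcripts that the results turn on, and they show the ways in which a frame ends early. Each line gives 30 bases of the spliced transcript, 5′ to 3′, from the GENCODE M21 transcript sequences on mm10, with the annotated stop codon in capitals. In Ddx5-208 the stop lies in an intron that protein-coding transcripts remove. In the next 7 it lies in an internal exon that no protein-coding transcript of the gene has. In Samhd1-204 and Smg1-204 it lies in an exon that protein-coding transcripts also use.
Ddx5-208: agagggctaggtTAGtacaaactcgaattc
Sat1-207: ggttacagtctcTAGcttcgccatgtacat
Rbm39-223: tccatctccttgTGAttggagtgtgggttt
Rbm39-225: aactgtcaatcaTAAggatgagaacaagtt
Tra2a-202: agattggtcagaTAGaagcacttgaatatt
Tial1-205: atgatagagaatTGAccaagaaaaataaag
Hnrnpl-213: ctaactcactgtTGAagcgtccaatggtga
Ccnl1-205 and Ccnl1-207: ccaaagcctgggTGAtgtggagtggtacat
Samhd1-204: gagtggggtaccTAGcaggctgcctggtgc
Smg1-204: gactggctactgTAAagcagctgaaggagt
The 3 bases in capitals are at chr11:106783954-106783956 for Ddx5-208, chrX:155215217-155215219 for Sat1-207, chr2:156174126-156174128 for Rbm39-223, chr2:156178881-156178883 for Rbm39-225 and chr6:49252965-49252967 for Tra2a-202, all on the minus strand. They are at chr7:128446765-128446767 for Tial1-205 and chr3:65955246-65955248 for both Ccnl1 transcripts, on the minus strand, and at chr7:28817391-28817393 for Hnrnpl-213, on the plus strand. For Samhd1-204 they are at chr2:157121933-157121935 and for Smg1-204 at chr7:118210780-118210782, both on the minus strand. The exon that holds the stop was 110 bases long in Sat1-207, 72 in Rbm39-223, 73 in Rbm39-225, 306 in Tra2a-202, 68 in Tial1-205, 70 in Hnrnpl-213 and 73 in the Ccnl1 pair.

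In all libraries NMD transcripts were a small part of the RNA of protein-coding genes. They held 4.0%, 3.64% and 4.06% of the TPM of these genes in replicates 1, 2 and 3, a mean of 3.90 ± 0.230% (SD, n = 3). Retained-intron transcripts held 38.1 ± 1.79% and protein-coding transcripts 48.5 ± 1.69% (SD, n = 3 each). Within the NMD biotype the 1232 transcripts held 82.0%, 84.4% and 84.2% of the TPM. Their mean TPM had a median of 3.79, with quartiles of 2.34 and 7.09 and a highest value of 435. Their mean estimated count had a median of 107, and 1161 of them had 10 or more counts in each library. The first table also gives an interval for each TPM, and its lower bound was 1 or more in all libraries for 735 (59.7%), beside 73.1% of detected transcripts of protein-coding genes.

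The threshold cut through a dense part of the distribution. Just inside it were Foxred1-206 (1.37, 1.00 and 2.38 TPM in replicates 1, 2 and 3), Ift88-203 (2.54, 1.00 and 1.42) and D230025D16Rik-205 (1.46, 1.76 and 1.00). Just outside were Becn1-214 (1.07, 1.19 and 0.99), Brd2-210 (0.99, 2.22 and 1.43) and Gm48551-202 (0.99, 1.73 and 1.35).

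The highest NMD transcript by far was Ddx5-208, from the gene of the DEAD-box RNA helicase p68 that acts in splicing and transcription. It had 509, 405 and 391 TPM in replicates 1, 2 and 3, with a mean of 435 ± 64.5 (SD, n = 3). It spans chromosome 11, 106781548 to 106788494, on the minus strand, with 12 exons. It made up 61.5%, 58.9% and 57.5% of the TPM of its gene, more than any of the other 8 transcripts of Ddx5. Its stop codon is in exon 11, within sequence that protein-coding transcripts splice out. Of its 3593 bases, 729 are in no other Ddx5 transcript. It retains an intron and has no junction of its own, and the part of unspliced RNA in its values was not tested. The microRNA gene Mir3064 is annotated within its exons on the same strand. The second table gave it 343, 322 and 340 TPM and 45.7%, 53.7% and 47.4% of its gene, so it lay above 50% in every library of the first table and in replicate 2 of the second.

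Sat1-207 came next with 116, 89.4 and 91.8 TPM. Sat1 codes for the spermidine and spermine acetyltransferase that starts polyamine breakdown, and the 110-base exon of this transcript, at chromosome X, 155215121 to 155215230, ends the frame after 71 codons where the longest protein-coding transcript has 178. The 2 quantifications gave nearly the same mean, 99.2 and 98.0 TPM. It held 10.0%, 11.1% and 13.1% of Sat1 in the first table and 12.1%, 14.6% and 14.9% in the second. Of the splicing factor genes, Rbm39-223 had 77.8, 63.7 and 68.1 TPM. Rbm39 codes for an SR-like coactivator of splicing and transcription.

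The next 7 by mean TPM were of several kinds. Srrm2-203 (38.7, 65.7 and 89.0 TPM) comes from the gene of a large spliceosome scaffold protein, and Hnrnpu-206 (57.5, 53.8 and 73.8) from that of a chromatin-bound hnRNP. Paxbp1-201 had 74.3, 55.6 and 59.6, and its exons overlap 4930404I05Rik on the other strand. Genes of innate immunity gave Samhd1-204 (69.95, 46.5 and 54.3 TPM), from a dNTP hydrolase that restricts retroviruses, and Nlrp1b-205 (62.7, 52.5 and 52.6), from an inflammasome sensor. Lilr4b-204 had 43.2, 59.0 and 78.7, and belongs to a family of inhibitory immune receptors with close copies, so its reads may be shared between genes. Stard9-203, from a kinesin motor gene, had 57.6, 48.2 and 54.0.

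Replicate 1 was not always the highest of these. It was the lowest library for Srrm2-203 and Lilr4b-204, where replicate 3 was highest, and the highest for Ddx5-208, Sat1-207, Rbm39-223, Paxbp1-201, Samhd1-204, Nlrp1b-205 and Stard9-203.

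**Figure D1:**
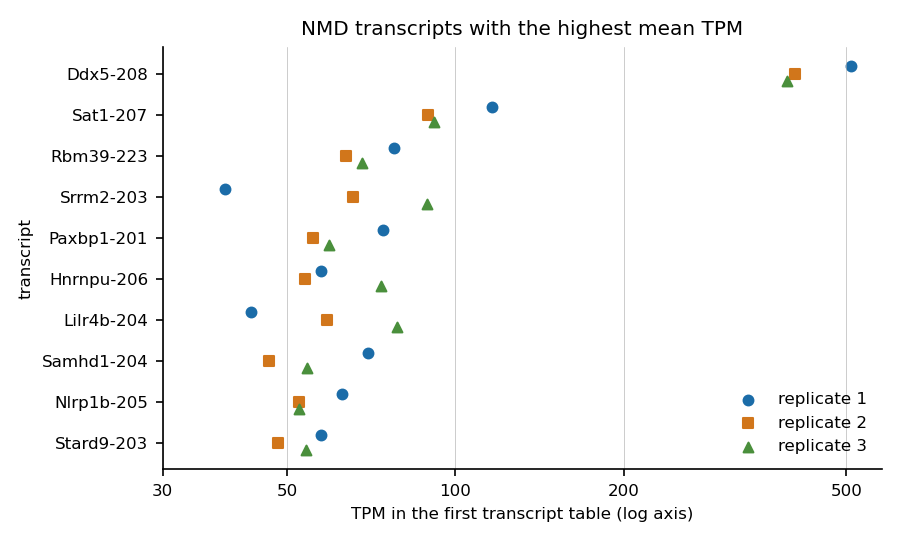
TPM in the first transcript table (x axis, logarithmic) of the 10 NMD transcripts with the highest mean TPM, with 1 point for each of the 3 libraries. Ddx5-208 lies between 391 and 509 TPM in every library, while the other 9 lie between 38.7 and 116.

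Most NMD transcripts were a minor product of their gene. The share of gene TPM, which is the transcript's TPM as a percent of the sum over all transcripts of the gene, had a median of 12.6% over the 1232, with quartiles of 6.80% and 23.6%. The median was 13.1%, 11.8% and 13.0% in replicates 1, 2 and 3. By the same rule the median was 18.3% for retained-intron and 28.9% for protein-coding transcripts. A share under 5% in every library was found for 142, and a share of 10% or more in every library for 603. In 189 cases (15.3%) the NMD transcript had the highest mean TPM of its gene. Among them are genes with a single transcript, where it leads by definition. These counts were not made for other biotypes, so they do not show a trait particular to NMD transcripts.

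A share above 50% in all 3 libraries was reached by 44 (3.57%), beside 11.3% of detected transcripts of protein-coding genes. By biotype that share was reached by 3.32% of retained-intron, 3.31% of processed_transcript and 20.4% of protein-coding transcripts, so NMD transcripts were close to the first 2. Part of these 44 had no competitor: 9 were in genes without a protein-coding transcript, 8 of them genes with a single transcript, and 11 were readthrough transcripts that join neighbouring genes. Of the 44, 41 had at least 1 TPM in every library of the second table and 25 again had more than 50%.

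**Figure D2:**
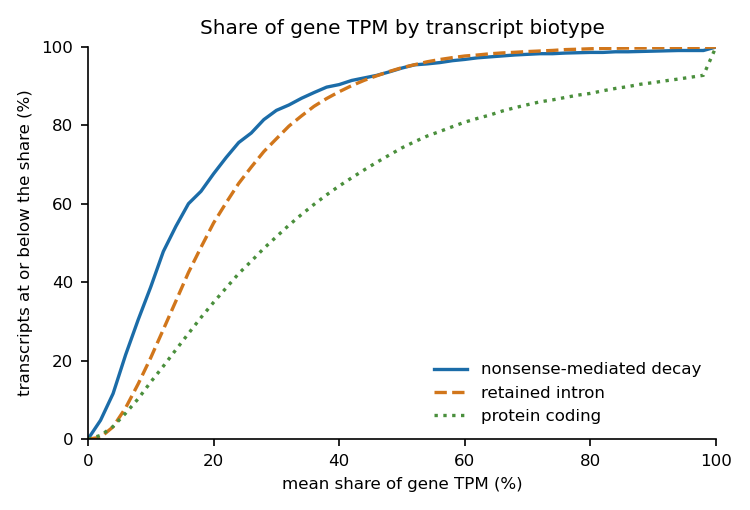
Percent of transcripts (y axis) whose mean share of gene TPM is at or below the value on the x axis, for detected NMD, retained-intron and protein-coding transcripts of protein-coding genes. At a share of 10% the NMD line is at 38.8%, above retained introns at 20.8% and protein-coding transcripts at 14.6%.

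Among genes with a protein-coding transcript and a mean TPM of 5 or more, 10 members had the highest shares. Evi2-201 held 100% of its gene, and is a readthrough transcript over Evi2a and Evi2b. Its exons overlap those genes on the same strand, so its reads may be shared with them. In replicate 2 it had 13.1 TPM, but the lower bound of the interval was 0.0774. Chmp4c-202, from a gene of the membrane-cutting ESCRT-III complex, held 90.7%, 86.1% and 87.9%. It has 3899 of 4163 bases to itself and overlaps Snx16 on the other strand, and the second table gave it 73.6%, 72.2% and 71.0%. Cd300c2-202, from the gene of an activating immune receptor, held 85.8%, 83.6% and 81.7% at 64.8, 41.8 and 30.3 TPM. Its shares in the second table were lower, 66.8%, 64.5% and 62.7%. Sh2b3-205, from the gene of an adaptor that restrains cytokine signalling, held 74.7%, 79.0% and 74.7%, but between 42.1% and 46.0% in the second table, and it overlaps Atxn2 on the other strand.

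The others held between 58.7% and 81.3% in every library. Psmc5-202, from a proteasome ATPase gene, held 77.8%, 68.5% and 79.0%, and its stop lies in a retained intron. Selenoo-202 held 61.7%, 73.6% and 67.7%, with 65.5%, 74.2% and 67.6% in the second table. Rbmx-205, from the gene of hnRNP G, held 72.3%, 62.0% and 66.0%, with its stop in an 89-base exon absent from protein-coding transcripts, and 70.6%, 65.3% and 66.8% in the second table. Khnyn-203, from the gene of a cofactor of the antiviral protein ZAP, held 58.7%, 74.6% and 70.8%.

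For 2 of these 10 the second quantification gave a much lower share. Rnf114-203, from a ubiquitin ligase gene, had 64.2%, 81.3% and 78.2% in the first table and 20.1%, 27.8% and 8.06% in the second. Mill2-203, from a gene related to MHC class I, had 71.7%, 66.6% and 68.5% in the first and 26.6%, 29.8% and 31.5% in the second.

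The annotation was checked against the rule that defines the biotype. The stop codon lay more than 50 bases before the last exon junction in 1221 of 1231 members with an annotated stop, beside 7146 of 7184 of all NMD transcripts. The median distance from stop to last junction was 516 bases for members and 310 for the other NMD transcripts. Members were longer, with a median of 2150 bases and 9 exons beside 1087 bases and 7 exons. The frame before the stop had a median of 133 codons, and over genes with a protein-coding transcript the median was 24.97% of the longest protein-coding frame. The stop codon was TGA in 672 (54.6%), TAA in 288 and TAG in 271. For 317 the annotation marks the frame or an end as incomplete.

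By position of the stop codon, 626 members had it in an exon also used by protein-coding transcripts. In 269 it was in an internal exon absent from protein-coding transcripts, in 185 in other sequence outside protein-coding exons, and in 51 within a retained intron. A further 87 shared the stop codon of a protein-coding transcript, and 14 were placed in no class.

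The class with the stop in a retained intron had the highest percent of transcripts detected. Of its 109 annotated NMD transcripts, 51 (46.8%) were members, and 57.8%, 53.2% and 51.4% reached 1 TPM in replicates 1, 2 and 3. Of the 4249 with the stop in a protein-coding exon, 14.7% were members, with 24.4%, 20.9% and 20.0% by library. All libraries score the same annotated transcripts by the TPM that chose the members, so these percents are a description only. In the second table the percent detected in every library was 54.1% for stops in retained introns and 27.2% for stops in protein-coding exons. For stops in an exon absent from protein-coding transcripts it was 18.9% in the first table and 47.0% in the second, so the place of that class depends on the quantification.

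**Figure D3:**
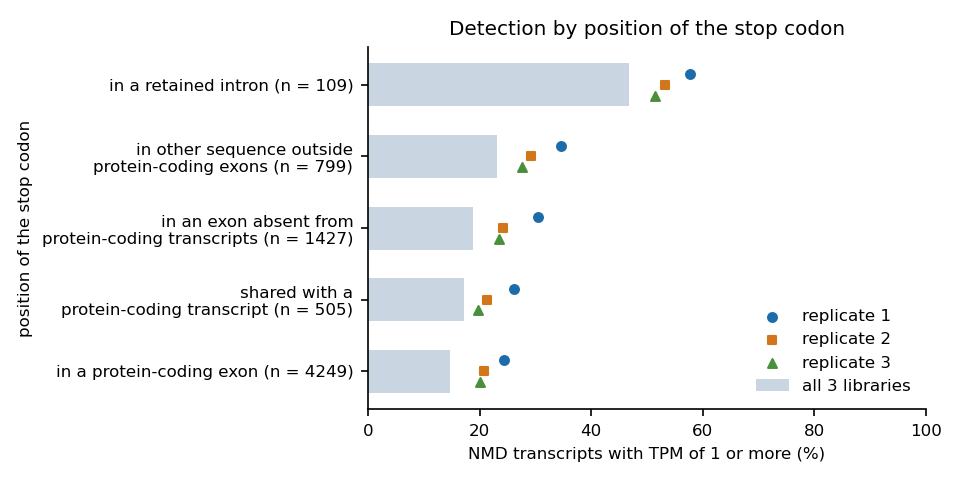
Percent of annotated NMD transcripts with a TPM of 1 or more in the first table (x axis), by position of the stop codon. Bars start at 0 and show transcripts detected in all 3 libraries, points show single libraries, and n is the number annotated. The retained-intron class lies between 51.4% and 57.8% by library and the other classes between 19.8% and 34.5%.

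Retention of an intron anywhere in the transcript gave a like difference. Of 437 NMD transcripts that contain a whole intron of a protein-coding transcript, 177 (40.5%) were members, against 1042 of 6654 (15.7%) that contain none. Where the other transcripts of the gene summed to 10 TPM or more, the percents were 64.4% and 26.1%. In the second table the difference in detection was smaller, 46.0% for intron-retaining transcripts and 32.0% for the rest. The median share of gene TPM was 16.4% for intron-retaining members and 11.8% for the rest, and 13.5% and 11.7% in the second table.

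Intron-retaining transcripts also have more sequence of their own, and detection rose with it. Of NMD transcripts with more than 500 bases found in no other transcript of their gene 39.8% were members, with a median share of 21.9%, and of those with no such base 13.1%, with a median share of 10.6%. Within the class of more than 500 own bases, 59.3% of intron-retaining and 39.2% of other transcripts were members. With up to 100 own bases the percents were 30.6% and 13.1%. Between these, with over 100 and up to 500 own bases, they were 43.3% and 19.4% in the first table but 49.5% and 51.2% in the second. A read inside an intron does not tell a transcript that retains it from a precursor not yet spliced, and the part of unspliced RNA in these values was not tested.

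Genes of SR and SR-like splicing factors are the best known makers of such transcripts. They had 35 members among 75 annotated NMD transcripts (46.7%, beside 17.1% for all NMD transcripts of protein-coding genes), in 24 of 35 genes. Their median share of gene TPM was 5.52%, beside 12.6% over all members, with a range from 0.150% to 34.9%. The 32 listed genes with an NMD transcript had a median gene TPM of 99.4, and a transcript of a highly expressed gene passes a fixed TPM with a smaller share. How far gene level accounts for the 46.7% was not tested. In 13 of the 35 the stop was in an exon absent from protein-coding transcripts, beside 269 of all 1232 members. Of the 35, 31 were detected in the second table, close to the 89.2% of all members (1099 of 1232). No base or junction of their own sets 14 of the 35 apart from the other transcripts of the gene. The same held for 156 of all 1232 members (12.7%).

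Tra2a-202 had the highest share of the list. Tra2a codes for a splicing activator that binds purine-rich enhancers, and the 306-base exon of this transcript, at chromosome 6, 49252803 to 49253108, holds its stop. It had 13.8, 31.1 and 28.9 TPM and 16.6%, 44.3% and 43.8% of its gene, so replicate 1 lay apart from the other libraries. The second table gave 44.9%, 54.0% and 56.5%, where replicate 1 was the lowest but much closer. Srrm2-203 held 7.24%, 15.2% and 20.96%, and Prpf38b-208, from a splicing factor gene, 11.8%, 19.7% and 24.0%. Replicate 1 was again the lowest in both. Srrm2-203 is 494 bases long and its frame or an end is marked incomplete. It held only 0.430%, 0.901% and 1.28% of the estimated counts of Srrm2, so its share depends on the measure. Luc7l2-204, from a gene of a U1 snRNP partner, held 17.0%, 11.2% and 14.3%, with replicate 1 highest.

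Rbm39 had 6 members, the most of any gene, among its 25 annotated transcripts. Rbm39-223 held 9.13%, 9.09% and 10.6% of the gene and Rbm39-225 7.09%, 2.63% and 3.05%. In the second table Rbm39-225 held 0.508%, 0.314% and 0.615%. The 2 use different exons for their stops, and neither has a base or junction of its own. All NMD transcripts of Rbm39 summed to 21.6%, 17.4% and 17.2% of the gene in the first table and 30.9%, 34.0% and 31.7% in the second. For Srsf6-201, from a classical SR protein gene, 17.98, 2.34 and 4.59 TPM were found, with shares of 24.2%, 4.68% and 9.12%. It was the only Srsf6 transcript annotated to NMD.

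Genes of hnRNPs and other RNA-binding proteins had 22 members among 54 annotated NMD transcripts (40.7%, beside 17.1% overall), in 17 of 42 genes, with a median share of 10.4%. The listed genes with an NMD transcript had a median gene TPM of 63.4, which also eases passing a fixed TPM. How far this accounts for the 40.7% was not tested. Hnrnpa1, which codes for a repressor of exon inclusion, stood out by its share. Hnrnpa1-203 held 41.7%, 52.1% and 62.6% of gene TPM and Hnrnpa1-204 46.9%, 41.6% and 32.8%. Together they held 88.6%, 93.7% and 95.4% in the first table and 90.5%, 76.6% and 81.3% in the second. Both end at the stop codon of protein-coding transcripts, and have an extra 76-base exon downstream of it, at chromosome 15, 103246346 to 103246421. Hnrnpa1 has processed pseudogenes that are near-identical copies, so its values are uncertain.

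The other named members of this list were lower in share. Tial1-205, from the gene of a stress granule protein that binds U-rich RNA, held 14.2%, 26.2% and 21.1%, and all NMD transcripts of Tial1 34.9%, 42.2% and 37.3%. Pspc1-204, from a paraspeckle protein gene, held 24.8%, 26.8% and 34.0%. Hnrnpl-213 held 7.26%, 7.86% and 7.18%, with 8.04%, 7.85% and 7.49% in the second table, and varied little in either. Hnrnpu-206 held 22.6%, 20.8% and 29.5% and carries a readthrough tag.

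**Figure D4:**
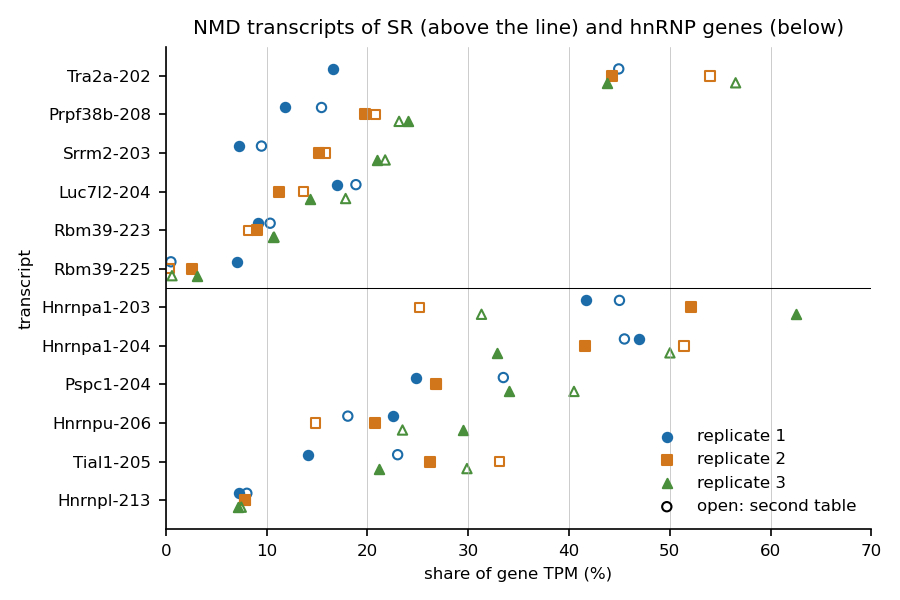
Share of gene TPM (x axis) in each library for the 6 members with the highest mean TPM of the SR list (above the line) and of the hnRNP list (below). Filled symbols are the first table and open symbols the second, with 1 symbol shape per replicate. Tra2a-202 in the first table has replicate 1 at 16.6% and the other libraries at 43.8% and 44.3%.

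The NMD machinery itself gave 1 member. All 32 genes listed as NMD and exon junction factors had a TPM of 1 or more in every library, with a median gene TPM of 16.4 and a range from 2.12 to 206. Only 5 of them have an annotated NMD transcript, 7 in all. The 1 member is 14.3% of these 7, near the 17.1% over all NMD transcripts of protein-coding genes. Smg1-204, from the gene of the kinase that phosphorylates UPF1, had 23.9, 24.1 and 23.9 TPM. It held 15.5%, 17.6% and 20.3% of Smg1, with 21.8%, 26.1% and 27.3% in the second table. Its stop is in exon 2 of 61 and leaves 10397 bases to the last junction.

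Genes of interferon responses and nucleic acid sensing had 9 members among 15 annotated NMD transcripts (60.0%, beside 17.1% overall), in 7 of 38 genes, with a median share of 13.6%. The listed genes with an NMD transcript had a median gene TPM of 91.1, which likewise lets a smaller share pass a fixed TPM. How far this accounts for the 60.0% was not tested. Samhd1-204 held 19.5%, 19.6% and 23.7% of its gene, and it both skips an exon and retains an intron, with 1817 bases of its own. Oasl2-205, from the gene of an antiviral OAS-like protein, had 52.3, 23.9 and 34.7 TPM and 24.4%, 18.6% and 27.6%. Rsad2-202, from the gene of the antiviral enzyme viperin, held 17.0%, 22.4% and 16.4%, with a 435-base exon that holds the stop. Sp100-209, from a nuclear body protein gene, held 8.16%, 10.1% and 5.88%.

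Mx1, the gene of an antiviral GTPase that is known to be defective in C57BL/6 mice, had 3 NMD transcripts and all 3 were members. Mx1-205 had 65.3, 34.3 and 28.3 TPM in the first table but 2.28, 0.909 and 0.543 in the second. Mx1-210 had 25.9, 5.70 and 14.8 in the first and 39.8, 18.7 and 24.5 in the second. Summed over the 3 transcripts the means were 63.2 and 62.6 TPM. The 2 quantifications therefore gave the gene a like amount of NMD RNA and placed it on different transcripts. As a share of Mx1 the sum was 59.1%, 60.8% and 54.3% in the first table and 42.0%, 40.6% and 45.0% in the second.

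Of 49 TLR4 and NF-kB signalling genes, 18 have an annotated NMD transcript, and 4 of 23 such transcripts (17.4%) were members, close to the 17.1% over all NMD transcripts of protein-coding genes. Ikbkb-208, from the gene of the kinase IKKβ, held 16.5%, 12.2% and 9.69% and retains an intron. Otulin-203, from a deubiquitinase of linear chains, held 19.7%, 11.8% and 17.9%, Rnf31-207, from the ligase that makes them, 9.64%, 23.8% and 13.9%, and Tbk1-204 3.96%, 4.05% and 3.62%. Rnf31-207 has exons that overlap Irf9 on the same strand. Of 44 immediate early and early inflammatory genes, 2 have an annotated NMD transcript, and the member was Sod2-202, from the mitochondrial superoxide dismutase gene, with 2.1, 1.5 and 1.51 TPM and 6.86%, 7.10% and 6.62%.

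Macrophage and lysosome genes had 4 members among 11 (36.4%, beside 17.1% overall), and the genes with an NMD transcript had a median gene TPM of 45.1. Lpl-203, from the lipoprotein lipase gene, held 31.4%, 16.9% and 16.8%, with 33.6%, 21.5% and 21.7% in the second table, so replicate 1 lay above the other libraries in both. Itgb2-205, from the β2 integrin gene, held 10.7%, 8.85% and 8.0%, but 22.6%, 19.0% and 19.3% in the second table. Genes of ribosomal proteins and translation had 9 members among 27 (33.3%, beside 17.1% overall), with a median share of 6.61% and a median gene TPM of 44.8 over the genes with an NMD transcript. Rpl12-201 held 17.3%, 9.14% and 14.7% in the first table and 6.05%, 5.18% and 5.79% in the second. The 3 members of Eif4a2, a translation initiation helicase gene, together held 4.01%, 3.97% and 7.91% in the first and 1.24%, 1.41% and 2.44% in the second. Ribosomal protein genes have many pseudogenes, so these values are uncertain.

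The second quantification used the same reads and is no independent replicate. It held more estimated counts, 23952474, 28155711 and 24946455 in replicates 1, 2 and 3, beside 15698066, 16005795 and 14386724 in the first. The tables therefore did not share out equal totals, and the part of this in their differences was not tested. In it 1099 of the 1232 (89.2%) had a TPM of 1 or more in every library, beside 93.1% of detected transcripts of protein-coding genes. The mean TPM was within 2-fold in 914 (74.2%), more than 2-fold higher in the second table in 209 and lower in 109, on values to which 0.1 TPM was added. Counts of 2-fold agreement were made for NMD transcripts only, so they cannot be set against other biotypes. The median log2 ratio of second to first was 0.06. The second table had 2347 NMD transcripts at 1 TPM or more in all libraries, of which 1248 were not members, and its NMD share of the TPM of protein-coding genes was 5.07 ± 0.149% (SD, n = 3). Median shares of gene TPM over the members were 12.6% and 12.2%.

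The transcripts with the largest disagreements share most of their sequence with others of the gene, but so do members in general. Over all members the median was 23 bases found in no other transcript of the gene, at a median length of 2150 bases. Higher in the second table were Rbm39-218 (mean TPM 1.08 and 34.9), 2010111I01Rik-209 (1.91 and 49.5), Ccnl1-207 (2.89 and 46.9), Itsn1-211 (2.35 and 33.5) and Asah1-202 (4.32 and 51.4). Lower were Ccnl1-205 (18.1 and 0.0766), Slc15a4-205 (13.1 and 0.150), Gm42715-202 (10.6 and 0.128), Bclaf1-208 (6.49 and 0.0160) and Myof-205, which had 4.67, 8.75 and 4.83 TPM in the first table and was listed at 0 in all libraries of the second.

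Ccnl1, which codes for cyclin L1, a cyclin of splicing-linked kinases, had a member in each direction. Its transcripts Ccnl1-205 and Ccnl1-207 share the same 73-base exon and stop codon. In replicates 1, 2 and 3 Ccnl1-205 had 26.9, 13.0 and 14.5 TPM in the first table, while Ccnl1-207 had 3.02, 2.85 and 2.81 there and 43.5, 50.7 and 46.5 in the second. The loss and the gain did not match, since the NMD transcripts of Ccnl1 summed to a mean of 58.7 TPM in the first table and 93.1 in the second. They made up 29.5%, 19.9% and 24.1% of the gene in the first table and 34.5%, 28.6% and 27.6% in the second. For Bclaf1, a gene of a splicing and transcription regulator, the sums were 35.3%, 26.7% and 31.8% beside 38.7%, 36.6% and 36.8%. Over the 174 genes with 2 or more members, the summed NMD TPM was within 2-fold between the tables in 143 (82.2%), and over all 1020 genes in 757 (74.2%).

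**Figure D5:**
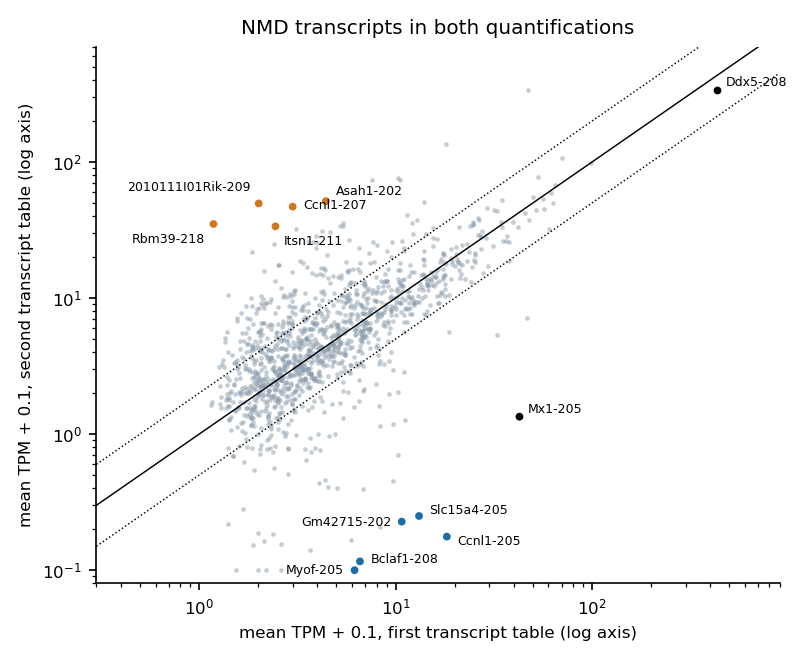
Mean TPM + 0.1 of the 1232 members in the first (x axis) and second (y axis) transcript table, both axes logarithmic, with 1 point per transcript. The solid line marks equal values and the dotted lines a 2-fold difference. Orange points are the 5 highest and blue points the 5 lowest ratios of second to first, and Ddx5-208 and Mx1-205 are in black; 914 of 1232 lie within the dotted lines.

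Between libraries TPM was often higher in replicate 1. It was higher there than in both other libraries for 834 members (67.7%), beside 62.2% of detected transcripts of protein-coding genes. The median log2 ratio of replicate 1 to replicate 2 was 0.42, beside 0.24 for those transcripts. For replicates 1 to 3 it was 0.51, beside 0.46, and for 2 to 3 it was lower in members, 0.13 beside 0.23. Protein-coding genes held 31.6%, 25.3% and 22.2% of all TPM in replicates 1, 2 and 3. The share of gene TPM does not carry this scale, and its median log2 ratios between libraries were 0.06, 0.03 and −0.04 for replicates 1 to 2, 1 to 3 and 2 to 3. It was highest in replicate 1 for 488 members (39.6%), beside 30.8%.

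The coefficient of variation of TPM over the libraries had a median of 28.5% for members. By the same rule it was 23.5% for retained-intron, 24.1% for protein-coding and 27.1% for processed_transcript transcripts, the last close to members. It was above 50% for 170. Among members with a mean of 50 or more estimated counts, the 5 most variable were Tpra1-204, Clec4n-205, Srsf6-201, Ttc14-209 and Snx13-203, and replicate 1 was the highest library for each. Tpra1-204 had 11.0, 2.37 and 1.59 TPM, Clec4n-205 8.17, 1.62 and 1.35, and Snx13-203 11.1, 2.45 and 1.96. In the second table Tpra1-204 had 9.92, 3.15 and 2.09, Clec4n-205 39.4, 18.3 and 20.0, and Snx13-203 11.9, 8.47 and 11.0, so the spread of the last was much smaller and the level of Clec4n-205 much higher there. The 5 least variable were Smg1-204, Rap1gds1-204 (3.04, 3.12 and 3.13), Ddx55-203 (6.01, 6.24 and 6.04), Ccdc171-203 (3.12, 3.25 and 3.21) and Pcnp-205 (16.0, 16.9 and 16.7).

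Overlap with other genes limits single values. The exons of 269 members overlap exons of a gene on the other strand, and those of 109 overlap another gene on the same strand. The strand setting of the counting is unknown here, so these values are uncertain. No base and no junction of their own sets 156 members (12.7%) apart within their gene, beside 917 of 7186 NMD transcripts (12.8%), so their reads are shared with other transcripts of the gene.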

How the data were processed

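Per the deposited readme files, all tables use mm10 and the GENCODE M21 annotation. The first transcript table holds estimated counts and TPM with an interval for each TPM, which the authors derived from transcriptome alignments, per the file headers and readme files. The second holds the authors' estimated counts and TPM from reads and a transcript index. No source used here names the programs or strand setting.

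Rows that name no annotated transcript held 1.16%, 0.459% and 0.351% of first-table counts and were left out of shares. Biotypes came from the identifiers of the second table. Shares of gene TPM, structure classes and stop codons were computed with pandas 2.3.3 and numpy 2.4.6 in Python 3.11.15 and checked on simulated data. Sequences are GENCODE M21 transcripts. With 1 group, no test was run and p-values were not computed. Named transcripts were the 10 highest by TPM, the 10 highest by share (gene TPM of 5 or more, a protein-coding transcript), up to 6 per gene list, the 5 highest and 5 lowest table ratios and coefficients of variation (mean count of 50 or more), and 3 on each side of the threshold. Members and the 8 lists were chosen with earlier results of these data known. Some transcripts that this rule takes are not reported here.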

Additional observations from a re-analysis of the deposited data

How the results depend on the processing

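The number of members depended on the threshold and the scale. It was 768 at a TPM of 2 or more, 328 at 5 or more, 2347 in the second table, 2062 with TPM rescaled over protein-coding genes and 735 where the lower bound of the interval was 1 or more, the last chosen after seeing the data. Leaving out 1 library gave 1327 to 1416. The median share was 11.9% with shares of estimated counts, and 11.8% to 12.6% with 1 library left out, lowest without replicate 3. Members above 50% numbered 80 by count share and 27 with a gene TPM of 5 or more, and 50 to 58 with 1 library left out. Those detected in the second table numbered 1178 to 1237 with 1 library left out, out of a set that grows with it. The NMD share of the TPM of protein-coding genes was 5.07% in the second table, 3.66% by counts and 3.82% to 4.03% with 1 library left out. In the other 28 of 39 alternatives values kept within the spread between libraries or, for counts, within 1.5 times. For the changes in median and NMD share the cause was not tested. Low counts limit single members, since the lowest mean estimated count was 3, and with 3 libraries a spread is itself imprecise. No paired analysis was possible because there is 1 group.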
